A study of Mus musculus with 10 samples.

Results

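The genes that turn arachidonic acid into prostaglandins, leukotrienes and epoxides were compared between ARG1+ and ARG1- myeloid cells of the inflamed spinal cord. The 10 genes, *Ptgs1*, *Ptgs2*, *Ptges*, *Hpgds*, *Alox5*, *Alox5ap*, *Alox15*, *Lta4h*, *Ltc4s* and *Cyp2j6*, were chosen by name, as the rows of the deposited table that carry these symbols, and they are 10 of its 55487 genes. The cells came from 5 male C57BL/6 mice of the genotype Arg1tm1Lky (*Arg1*-eYFP), in which yellow fluorescent protein (YFP) is made under control of *Arg1*, at the peak of experimental autoimmune encephalomyelitis (EAE), a model of multiple sclerosis started by immunization against myelin. Viable CD45+CX3CR1+ cells without CD3 and Ly6G were sorted from each spinal cord, and RNA of 200000 YFP+ cells (ARG1+) and 100000 YFP- cells (ARG1-) of each mouse was sequenced, which gave 5 libraries per group from mice m2, m6, m234, m235 and m236. All mice carried the reporter and had EAE, so that there was no healthy group, and the gate does not separate border-associated macrophages from cells derived from monocytes.

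Arachidonic acid is set free from membranes by phospholipases A2 and then enters one of several routes. Cyclooxygenases turn it into prostaglandin H2, from which terminal synthases make the individual prostaglandins and thromboxane. 5-Lipoxygenase with its activating protein makes leukotriene A4, which is either hydrolysed to leukotriene B4, an attractant of leukocytes, or joined to glutathione to give leukotriene C4, while epoxygenases of the cytochrome P450 family make epoxides that are opened by epoxide hydrolases. Macrophages and monocytes are known as a source of prostaglandin E2 and of leukotrienes in inflamed tissue.

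*Arg1*, the gene that the sort was built on, checked the labels. In counts per 1000000 counts of the library (CPM), it was at 579 to 1045 in the ARG1+ libraries and at 14.4 to 27.9 CPM in the ARG1- libraries. Library totals were 8396863 counts in the ARG1- library of m234 and 28212174 to 35455643 in the others. Changes are given as log2 fold changes of ARG1+ over ARG1-, with the standard error (SE) and the false discovery rate (FDR) of edgeR's quasi-likelihood test over the 13740 genes with more than 1 CPM in at least 3 libraries. Both libraries of a pair came from the same mouse. Values of a fit with the mouse as a block are given where they change the call of a named member or other gene of these routes. For markers of cell types and for genes of similar log2 CPM, only the fit without the block is given. The exact permutation tests of single genes and of summed markers exchange libraries freely and do not keep these pairs. A permutation of signs within the 5 mice, run only for ratios of genes, cannot give a p below 0.0625.

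In this comparison, 1 of the 9 members that passed the filter rose in ARG1+ cells and 1 fell. *Cyp2j6*, an epoxygenase, was 2.71-fold higher, and *Alox5*, the gene of 5-lipoxygenase, was at 0.541 of its ARG1- level. The authors had already listed *Cyp2j6* among the genes upregulated in ARG1+ cells of these libraries, so its call here is not independent of that result. It also passed the filter only through 4 ARG1+ libraries. Of all genes tested, 6.82% were higher and 6.15% were lower at an FDR below 0.05, and 0.56% were higher with a log2 fold change above 1, as *Cyp2j6* was. With the mouse as a block, the prostaglandin genes *Ptgs2* and *Ptges* and the leukotriene B4 gene *Lta4h* also passed, and 4 members were higher and 1 was lower, where 16.8% and 18.3% of all genes were called. The direction was the same in all 5 mice for *Cyp2j6*, *Ptgs2*, *Ptges*, *Lta4h* and *Alox5*, as it was for 41% of all tested genes. The median log2 fold change of the 9 members was 0.12, and that of all 13740 genes was -0.0022. *Alox15*, the gene of a lipoxygenase that oxidises arachidonic acid at another carbon, had 1 to 6 counts per library and did not pass the filter.

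The stretches before the start sites of *Cyp2j6* and *Alox5*, the genes that passed the test, and of *Ptgs2*, the member with the most reads, are shown to give the sequence context of the 3 genes. Each is the 250 bases before the RefSeq start site on build GRCm38.p6, written 5′ to 3′ on the strand of the gene, with GGGCGG (a GC box) and CACGTG (an E-box) in capitals.
*Cyp2j6*, chr4:96553652-96553901, reverse strand: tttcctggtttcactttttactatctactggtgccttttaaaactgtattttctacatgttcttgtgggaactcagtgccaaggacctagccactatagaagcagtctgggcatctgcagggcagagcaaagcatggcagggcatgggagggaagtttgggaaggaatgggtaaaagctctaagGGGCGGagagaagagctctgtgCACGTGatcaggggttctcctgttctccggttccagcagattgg
*Alox5*, chr6:116461179-116461428, reverse strand: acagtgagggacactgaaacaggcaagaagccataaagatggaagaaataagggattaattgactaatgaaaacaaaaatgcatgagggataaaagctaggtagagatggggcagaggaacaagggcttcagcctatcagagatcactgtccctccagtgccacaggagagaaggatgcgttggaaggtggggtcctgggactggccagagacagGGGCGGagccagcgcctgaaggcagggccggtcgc
*Ptgs2*, chr1:150099781-150100030, forward strand: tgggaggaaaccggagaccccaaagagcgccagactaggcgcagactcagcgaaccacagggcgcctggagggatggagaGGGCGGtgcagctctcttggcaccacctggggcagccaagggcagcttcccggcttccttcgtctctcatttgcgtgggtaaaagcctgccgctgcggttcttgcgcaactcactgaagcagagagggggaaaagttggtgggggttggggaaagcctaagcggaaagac

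RefSeq promoters were at hand for 8 of the 10 members, the exceptions being *Alox5ap* and *Alox15*. The RefSeq start of *Ptges*, at position 30903297, lies inside the gene as the deposited data place it (chr2:30889471-30929863, reverse strand). Its window is therefore not the stretch before the gene as counted. The starts of *Hpgds* and *Ltc4s* also lie inside their genes, but near the edge. On either strand GGGCGG was found in 4 of the 8, at 66 bases before the start of *Cyp2j6*, 35 before that of *Alox5*, 170 before that of *Ptgs2* and 53 and 42 before that of *Ptges*, and it is present in 32.7% of 32851 promoter windows of the same length. CACGTG was found 44 bases before the start of *Cyp2j6* and in 6.02% of all windows. GAGGAAG, a form of the PU.1 site, was found 24 bases before the start of *Ptgs1* and 49 before that of *Hpgds*, and in 10.6% of all windows. TATAAA (12.4% of all windows), TGACGT (6.47%) and TGACTCA (4.46%) were not found in the windows of the 8 members. The letters are a description of the windows, and no binding was measured.

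Among the members for prostaglandin synthesis, *Ptgs2*, the gene of the inducible cyclooxygenase (chr1:150100031-150108227, forward strand), had the highest transcript level. It held 61.4 to 74.9% of the summed CPM of the 10 genes in every library, and by mean CPM it ranked 100 among all genes in ARG1+ cells and 137 in ARG1- cells. Its level was 1061, 980, 1292, 1066 and 744 CPM in the ARG1+ libraries of m2, m6, m234, m235 and m236, and 776, 807, 780, 991 and 713 CPM in their ARG1- libraries. The ARG1+ library was above the ARG1- library in all 5 mice, by 0.10 to 0.78 on the log2 scale, but m236 was low in both and the groups overlapped. Across mice the difference did not pass the test (log2 fold change 0.38, SE 0.14, FDR 0.0861; exact permutation p = 0.0556, 2-sided, n = 5 per group). It passed in the fit with the mouse as a block (0.36, FDR 0.00986), with the Wald test of DESeq2 (FDR 0.0388), without the ARG1+ library of m236 (FDR 0.0267) and without the ARG1- library of m235 (FDR 0.0397). Without both libraries of m2 the blocked value was 0.33 at an FDR of 0.0536.

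*Ptgs1*, the gene of the constitutive cyclooxygenase (chr2:36230426-36252272, forward strand), was at a similar level in both groups. Its mean was 71.3 ± 16.7 CPM in ARG1+ cells and 68.3 ± 26.2 CPM in ARG1- cells (SD, 5 libraries each). The log2 fold change was 0.12, with a 95% interval of -0.41 to 0.65 and an FDR of 0.780 in edgeR. Its libraries were set apart by mouse rather than by group, with 44.8 and 35.1 CPM in both libraries of m235 and 107 CPM in the ARG1- library of m234. In 4 mice the ARG1+ library was the higher one, and in m234 the lower. The fit with the block did not pass (FDR 0.153), whereas without m234 it gave 0.26 at an FDR of 1.71e-04.

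*Ptges*, the inducible synthase of prostaglandin E2 (chr2:30889471-30929863, reverse strand), was at 9.14, 25.4, 18.3, 22.8 and 18.3 CPM in the ARG1+ libraries of m2, m6, m234, m235 and m236 and at 8.92, 16.6, 7.98, 20.3 and 16.3 CPM in their ARG1- libraries. The ARG1+ library was the higher one in all 5 mice, and m2 was low in both. The spread between mice was larger than the difference (log2 fold change 0.43, SE 0.29, FDR 0.346 in edgeR), and the groups overlapped. With the block the change passed (0.42, FDR 0.0310), but not without m6 (FDR 0.123).

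*Hpgds*, the synthase of prostaglandin D2 in blood cells (chr6:65117293-65144908, reverse strand), was at 25.1, 28.4, 32.1, 13.1 and 39.1 CPM in the ARG1+ libraries of m2, m6, m234, m235 and m236 and at 35.7, 30.2, 67.2, 16.1 and 29.8 CPM in their ARG1- libraries. The ARG1- library of m234 was the highest of all 10, and both libraries of m235 were the lowest. No difference was found by edgeR (log2 fold change -0.30, SE 0.34, 95% interval -1.03 to 0.43, FDR 0.588). The ARG1+ library was the lower one in 4 of 5 mice. Without the ARG1- library of m234 the value was 0.02 (FDR 0.970), and without both libraries of m234 it was -0.04 (FDR 0.939), or -0.07 with the block (FDR 0.622). The blocked fit without m236 gave -0.45 at an FDR of 0.0348.

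**Figure D1:**
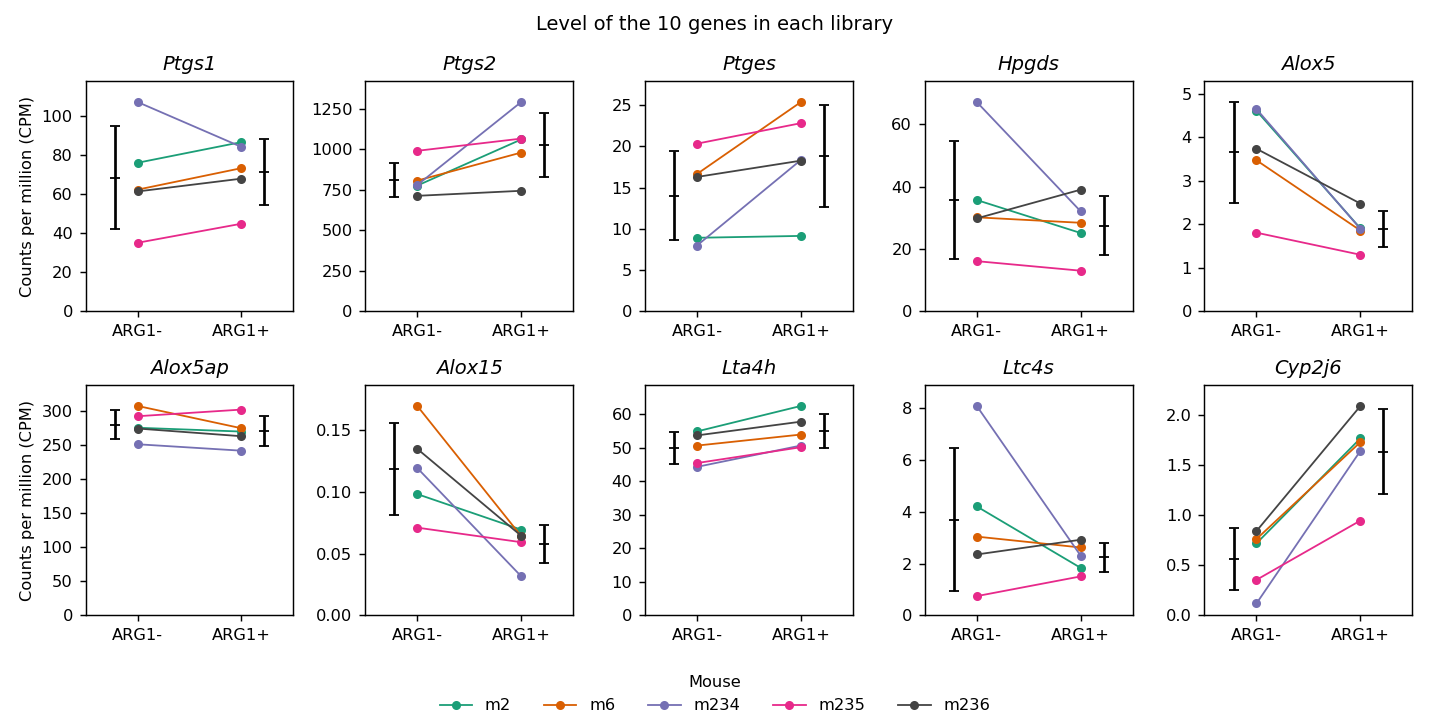
Level of the 10 genes in CPM (linear axes from 0) in the ARG1- and ARG1+ library of each mouse, with a line per mouse and the mean ± SD of the 5 libraries beside each group. *Cyp2j6* rises and *Alox5* falls in all 5 mice, *Ptgs2*, *Ptges* and *Lta4h* rise within each mouse while the groups overlap, and the *Alox15* values rest on 1 to 6 counts.

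On the leukotriene side, *Alox5*, whose product starts the route (chr6:116410077-116461178, reverse strand), was low in level and fell in ARG1+ cells. It was at 1.91, 1.86, 1.89, 1.30 and 2.47 CPM in the ARG1+ libraries of m2, m6, m234, m235 and m236, which are 44 to 77 counts. In their ARG1- libraries it was at 4.61, 3.47, 4.64, 1.81 and 3.73 CPM. The ARG1+ library was the lower one in all 5 mice, by 0.43 to 1.21 on the log2 scale. The groups overlapped because the ARG1- library of m235 was below 4 of the 5 ARG1+ libraries. The log2 fold change was -0.89 (SE 0.24, FDR 0.0336 in edgeR; exact permutation p = 0.0397, 2-sided). With the block it was -0.86 at an FDR of 0.00260, and the blocked fits without 1 mouse gave FDRs of 0.00132 to 0.0205. Without the block, the FDR was above 0.05 in 12 of 15 fits that left out a library or a mouse (up to 0.157, without both libraries of m2), and stayed below it only without the ARG1+ library of m236, the ARG1- library of m235 or both libraries of m235.

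*Alox5ap*, the gene of the protein that hands arachidonic acid to 5-lipoxygenase (chr5:149264767-149288153, forward strand), did not follow *Alox5*. Its level was 242 to 302 CPM (median 270) in ARG1+ cells and 251 to 307 CPM (median 275) in ARG1- cells. It was the member with the narrowest spread within ARG1- cells, with a coefficient of variation of 7.55%, and its log2 fold change of -0.01 had a 95% interval of -0.17 to 0.15 (FDR 0.932 in edgeR). The sign changed in several fits and carries no direction.

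*Lta4h*, the hydrolase that makes leukotriene B4 (chr10:93453411-93484875, forward strand), was at 62.5, 53.9, 50.7, 50.2 and 57.8 CPM in the ARG1+ libraries of m2, m6, m234, m235 and m236. In their ARG1- libraries it was at 54.9, 50.7, 44.3, 45.4 and 53.7 CPM. The ARG1+ library was above the ARG1- library of the same mouse by 0.13 to 0.24 on the log2 scale in all 5 mice, although the groups overlapped. Across mice the change did not pass (log2 fold change 0.18, SE 0.07, FDR 0.127 in edgeR; exact permutation p = 0.0556). With the mouse as a block it did (0.18, FDR 0.00441), also without any 1 mouse (FDR 0.00350 to 0.0299).

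*Ltc4s*, the synthase of leukotriene C4 (chr11:50236461-50238616, reverse strand), had 21 to 129 counts per library. It ranged from 1.51 to 2.92 CPM (median 2.30) in ARG1+ cells and from 0.744 to 8.10 CPM (median 3.05) in ARG1- cells, where m235 was lowest and m234 highest. The 10.9-fold range in ARG1- cells was the widest of the members, and no difference was found (log2 fold change -0.56, SE 0.45, 95% interval -1.53 to 0.41, FDR 0.426 in edgeR). Of its exon bases, 29.4% overlap *Gm26542* on the other strand, which had 2 to 11 counts per library; for *Alox5ap* and *Ptgs1* the overlap with *Gm19719* and *Gm43621* was 14.0% and 5.16%, and both had at most 1 count. The sources used here do not give whether strand entered the counting.

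*Alox15* (chr11:70344152-70352031, reverse strand) had 1 or 2 counts in each ARG1+ library and 1 to 6 in each ARG1- library, 9 and 16 counts in all. Its CPM was lower in every ARG1+ library than in every ARG1- library, but at this depth no fold is given.

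Epoxide synthesis was represented by *Cyp2j6* (chr4:96516138-96553661, reverse strand). It was at 1.77, 1.73, 1.64, 0.946 and 2.09 CPM in the ARG1+ libraries of m2, m6, m234, m235 and m236, from 32 to 65 counts. In their ARG1- libraries it was at 0.719, 0.762, 0.119, 0.354 and 0.841 CPM, from 1 to 27 counts. Every ARG1+ library was above every ARG1- library, as in 12% of all tested genes for either direction, and m235 was the lowest in ARG1+ cells. The log2 fold change was 1.44 (SE 0.32, 95% interval 0.74 to 2.14, FDR 0.0141 in edgeR; exact permutation p = 0.00794, the smallest that 5 against 5 libraries can give). The gene passed the filter only through 4 ARG1+ libraries, so its place among the tested genes depended on the group in which it was high, and without a filter the value was 1.45 at an FDR of 0.00855. With the block it was 1.47 (FDR 0.00139). Leaving out both libraries of m2 or of m6 raised the FDR to 0.0663 and 0.0620 without the block. Of its stretches of 50 bases, 0.422% also occur in *Cyp2j7* or *Cyp2j13*.

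**Figure D2:**
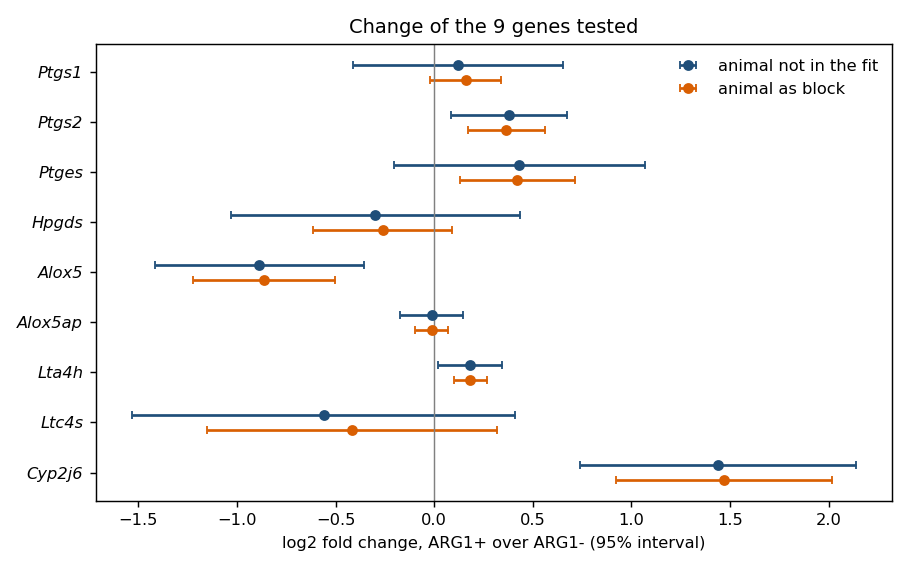
Log2 fold change of ARG1+ over ARG1- for the 9 genes tested, with 95% intervals, from edgeR without the mouse (blue) and with the mouse as a block (orange). The intervals of *Ptgs2*, *Ptges* and *Lta4h* become narrower with the block while their values stay between 0.18 and 0.43, and those of *Ptgs1*, *Hpgds*, *Alox5ap* and *Ltc4s* include 0 in both fits.

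Compared per exon length, as CPM divided by the exon length in kilobases (RPKM), the 10 genes spanned a wide range of levels. *Ptgs2* (231 ± 44.2 RPKM in ARG1+, 183 ± 23.6 in ARG1-; SD, n = 5) and *Alox5ap* (201 ± 16.2 and 208 ± 15.7 RPKM) stood on top and overlapped each other in both groups. *Lta4h* (27.1 ± 2.55 and 24.5 ± 2.35 RPKM) and *Ptgs1* (24.9 ± 5.81 and 23.8 ± 9.15 RPKM) followed and also overlapped. *Hpgds*, *Ptges* and *Ltc4s* lay between 3.44 and 10.3 RPKM by group mean, and neighbours among them overlapped in both groups. *Alox5* was at 0.669 ± 0.147 RPKM in ARG1+ cells and 1.29 ± 0.409 in ARG1- cells, and *Cyp2j6* at 0.453 ± 0.117 and 0.155 ± 0.0857 RPKM. These last 2 genes overlapped in ARG1+ libraries (*Alox5* was nonetheless the higher in 5 of 5) and were apart in ARG1- libraries. *Alox15* was last by group mean, at 0.0239 and 0.0491 RPKM. It lay below *Cyp2j6* in every ARG1+ library, whereas in ARG1- libraries both genes overlapped and *Cyp2j6* was the higher in 4 of 5. *Alox5*, *Alox5ap* and *Ltc4s* have more than 1 transcript in the annotation, and the sources used here do not give how reads on shared exons were counted, so their levels per length are less certain than those of the other members.

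**Figure D3:**
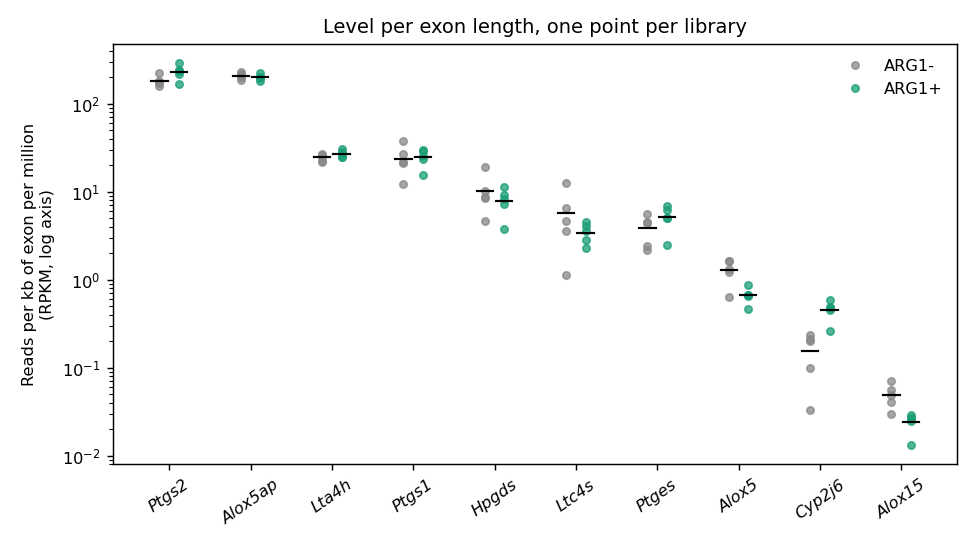
Level of the 10 genes per exon length (RPKM, log axis), one point per library and a bar at the mean of each group, in order of the mean over all libraries. *Ptgs2* and *Alox5ap* lie near 200 RPKM, *Alox5* and *Cyp2j6* near or below 1.

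The balance between routes was described by 4 ratios of RPKM within a library, which were chosen after the values were seen. *Ptgs2* was 7.06 to 15.3 times *Ptgs1* in ARG1+ libraries and 4.69 to 18.2 times in ARG1- libraries, with m235 highest in both groups. *Alox5ap* was 223 to 487 times *Alox5* in ARG1+ and 113 to 339 times in ARG1- libraries, higher in ARG1+ in 5 of 5 mice (exact permutation p = 0.0476, 0.190 after Benjamini-Hochberg adjustment over the 4 ratios). This ratio restates the fall of *Alox5* beside a nearly unchanged *Alox5ap* in the same libraries, and is not a separate result. *Hpgds* over *Ptges* ran from 0.601 to 2.89 and from 0.833 to 8.83 (adjusted exact permutation p = 0.571), and *Lta4h* over *Ltc4s* from 6.35 to 10.9 and from 1.76 to 19.6 (adjusted exact permutation p = 0.571). For *Ptgs2* over *Ptgs1* the adjusted exact permutation p was 0.579. These tests exchange libraries freely, although both libraries of a pair came from the same mouse. Within mice, *Alox5ap* over *Alox5* was higher in ARG1+ by 0.52 to 1.24 on the log2 scale, and an exact permutation of the signs of the 5 differences, added after the data were seen, gave p = 0.0625, the smallest that 5 pairs allow (0.25 after adjustment), so that no ratio could pass this test. The other 3 ratios did not go the same way in all mice.

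Within the groups, *Ptgs1*, *Hpgds*, *Ltc4s* and *Alox5* moved together between mice. In ARG1- cells all 4 were highest in m234 and lowest in m235, and in ARG1+ cells all 4 were lowest in m235. For *Alox5* the ARG1- libraries of m234 and m2 were nearly level, at 4.64 and 4.61 CPM from 39 and 141 counts, so its highest library is not settled. The summed CPM of 7 microglia markers, led by *Tmem119*, had the same extremes, at 567 CPM in the ARG1- library of m234, 103 in that of m235 and 74.8 in the ARG1+ library of m235, against 132 to 294 in the other 7 libraries. The sum was lower in the ARG1+ library of all 5 mice, but none of the 7 markers passed the test without the block. Their values with the block are not given here. The sums overlapped (74.8 to 156 CPM in ARG1+, 103 to 567 in ARG1-), with an exact permutation p = 0.151 that does not keep the pairs. The same 3 libraries were also the extremes for the summed markers of astrocytes (19.2, 6.52 and 3.28 CPM in that order), of eosinophils (14.4, 3.08 and 1.86 CPM) and of oligodendrocytes (147, 98.6 and 109 CPM). Over the 10 libraries, deviations of log2 CPM from the group means correlated with those of the microglia sum at r = 0.955 for *Ptgs1*, 0.918 for *Hpgds*, 0.897 for *Ltc4s* and 0.836 for *Alox5*, against 0.962, 0.905, 0.861 and 0.771 for the eosinophil sum, 0.845, 0.939, 0.762 and 0.805 for the astrocyte sum and 0.902, 0.833, 0.778 and 0.635 for the oligodendrocyte sum. These values are a description, since all rest on the same libraries, and they do not single out 1 cell type. The part of these cells in the levels of the 4 genes was not tested. In bulk libraries fewer cells of a type and less RNA per cell cannot be told apart.

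**Figure D4:**
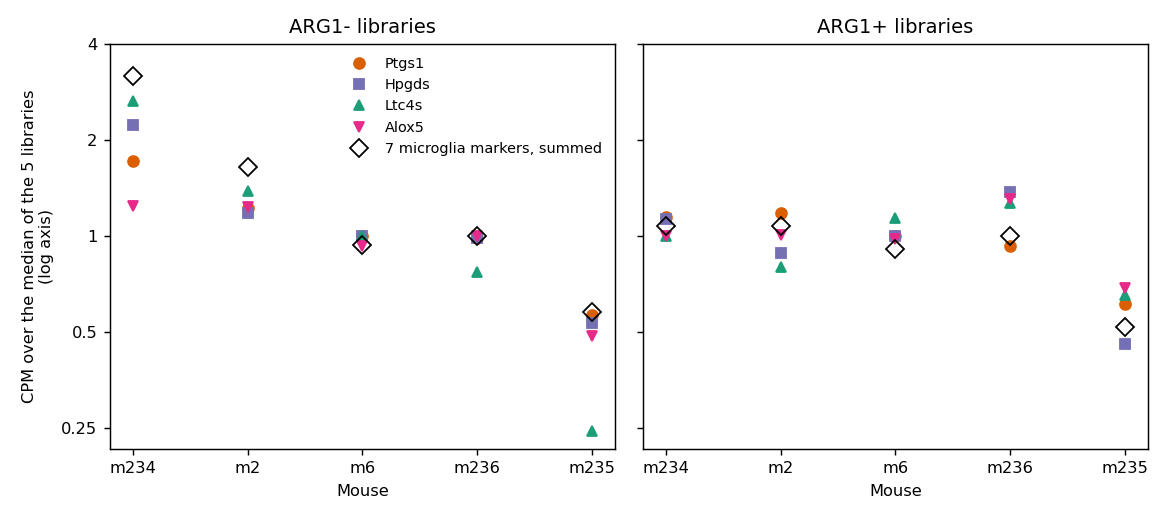
CPM of *Ptgs1*, *Hpgds*, *Ltc4s* and *Alox5* and the summed CPM of 7 microglia markers in each library, divided by the median of the 5 libraries of the group (log axis). In ARG1- cells every symbol is highest in m234 and lowest in m235, and in ARG1+ cells every symbol is lowest in m235. *Alox5* is nearly level between m234 and m2 in ARG1- cells.

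Markers of other cell types also moved with the groups, and their part in the results was not tested. Calls are those of the fit without the block, in which 6.82% of all genes tested were higher and 6.15% were lower. Of the border-associated macrophage markers, 4 of 8 passed the filter and 2 (*Mrc1* and *Pf4*) were higher in ARG1+ cells, with summed levels of 790 to 1586 CPM against 420 to 988, led by *F13a1*. Dendritic cell markers (led by *Clec9a*) summed to 11.7 to 28.1 CPM against 29.9 to 57.1, and 5 of the 6 tested were lower. *Clec9a* itself was not lower (log2 fold change 0.28, FDR 0.547 in edgeR). *Flt3*, *Zbtb46* and *Dpp4* passed the filter only through ARG1- libraries, so their place among the tested genes depended on the group in which they were high. Of the 6 classical monocyte markers (led by *Chil3*) 4 were lower, while their sums overlapped (1904 to 7687 CPM against 2382 to 7145). For mast cells and basophils, in which *Hpgds*, *Alox5* and *Ltc4s* are abundant, *Cpa3*, *Mcpt4*, *Mcpt8*, *Fcer1a*, *Ms4a2* and *Tpsb2* had 0 counts in every library, and the sum of 5.20 to 9.69 CPM against 10.5 to 12.6 was mostly *Hdc*, which was lower. For eosinophils, in which *Alox15* is known, *Epx* and *Il5ra* had 0 counts and the sums, mostly *Siglecf*, were 1.86 to 4.42 CPM against 3.08 to 14.4. Neutrophil markers (led by *Csf3r*) summed to 293 to 445 CPM against 269 to 374, with 1 of 4 tested lower. That gene, *S100a9*, also passed the filter only through ARG1- libraries. Platelet markers, where *Ptgs1* is known, summed to 1.07 to 1.67 CPM against 0.976 to 2.94, with *Gp1bb* at 0. Among the tested markers of lymphocytes, glia and endothelium, *Jchain* of plasma cells and *Flt1* of endothelial cells were lower in ARG1+ cells, and none of T or NK cells passed the filter.

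Of 91 other genes of these routes in the table, 39 passed the filter, 6 were higher and 2 were lower in ARG1+ cells (FDR below 0.05 in edgeR), and their median log2 fold change was 0.17. With the mouse as a block 17 were higher and 6 lower, and these included all 8 called without it. Of all genes tested, 6.82% were higher and 6.15% lower without the block, and 16.8% and 18.3% with it. The groups did not overlap for 7 of the 39 genes and for 12% of all tested genes. The direction was the same in all 5 mice for 41% of all tested genes. None of the 5 other lipoxygenases and none of the 14 other epoxygenases passed the filter, so that *Alox5* was the only lipoxygenase and *Cyp2j6* the only epoxygenase tested.

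Among phospholipases A2 and their relatives, 2 of 8 tested were higher without the block, and 4 were higher and 1 was lower with it. *Pla2g7*, which inactivates platelet-activating factor and was the most abundant gene of the list, was at 1416 ± 147 CPM in ARG1+ and 1030 ± 207 in ARG1- cells (log2 fold change 0.50, FDR 0.0326). Its FDR was above 0.05 in 11 of 15 fits that left out a library or a mouse (up to 0.102, without both libraries of m6), and stayed below it only without the ARG1+ library of m2, the ARG1- library of m6 or of m235 or both libraries of m235. *Pla2g4c*, a cytosolic phospholipase, was at 2.71 ± 1.08 and 1.41 ± 0.366 CPM (0.98, FDR 0.0487). It lost its call with limma-trend (FDR 0.0617), with total counts as library sizes (FDR 0.0502) and in 12 of the 15 fits (up to 0.188, without both libraries of m2), and kept it only without the ARG1+ library or both libraries of m236 or the ARG1- library of m235. With the mouse as a block both genes passed (FDR 3.45e-04 for *Pla2g7* and 0.00835 for *Pla2g4c*), also without any 1 mouse. *Pla2g4a*, outside the naming rule, was at 50.8 CPM in ARG1+ and 46.1 in ARG1- cells (0.17, FDR 0.251). It passed with the block (0.17, FDR 0.0187). *Pla2g4c* was also the gene whose log2 CPM was most like that of *Ptgs2* over the 10 libraries (Pearson r = 0.976, chosen after its values were seen).

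Beside the terminal synthases, 2 of 3 tested relatives from the glutathione transferase family to which *Ptges*, *Alox5ap* and *Ltc4s* belong were higher. *Mgst2*, which can also join glutathione to leukotriene A4, was at 2.37 to 3.87 CPM in ARG1+ and 0.851 to 1.48 in ARG1- libraries, and was the only other gene of these routes past both FDR and a log2 fold change of 1 (1.33, SE 0.19, FDR 0.00139). *Mgst1*, its most abundant relative, was at 170 ± 7.49 and 124 ± 20.9 CPM (0.49, FDR 0.0122). The groups did not overlap for either gene, and without the block *Mgst1* was above an FDR of 0.05 only when both libraries of m2 or of m6 were left out (FDR 0.0546 and 0.0600). Among the 6 other prostanoid synthases tested none passed without the block; *Tbxas1*, thromboxane synthase, was the most abundant (139 and 127 CPM, log2 fold change 0.17, FDR 0.280) and *Prxl2b*, a prostaglandin F synthase, had the largest change (0.22, FDR 0.295). With the mouse as a block 3 of the 6 passed, *Tbxas1* (0.17, FDR 0.00492) and, outside the naming rule, *Akr1b3* (0.15, FDR 0.0339), both higher in 5 of 5 mice, and *Ptges3* (-0.18, FDR 0.00391), lower in 5 of 5.

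Downstream, *Ptger4*, the EP4 receptor of prostaglandin E2, fell from 105 ± 24.7 CPM in ARG1- to 55.6 ± 9.63 in ARG1+ cells (log2 fold change -0.87, FDR 0.00443), with no overlap, and was 1 of 3 receptors of prostanoids tested. *Ptger2*, another prostaglandin E2 receptor outside the naming rule, went the other way, at 17.4 CPM in ARG1+ and 14.5 in ARG1- cells (0.30, FDR 0.0890). It was higher in 5 of 5 mice, also with no overlap, and passed with the block (0.29, FDR 0.0171). *Ptgr1*, a reductase that inactivates prostaglandins and leukotriene B4, was the only 1 of 5 tested breakdown and transport genes to pass without the block. It was at 37.8 ± 6.76 against 24.0 ± 6.11 CPM (0.67, FDR 0.0267). Its FDR was above 0.05 in 6 of 15 fits that left out a library or a mouse (up to 0.107, without both libraries of m2). With the block *Ptgr2*, outside the naming rule, passed too (0.25, FDR 0.0118), higher in 4 of 5 mice. *Hpgd*, the dehydrogenase that begins prostaglandin breakdown, had the largest value of that list, at 0.591 to 1.25 CPM against 0.922 to 14.6 (-1.79, SE 0.69, FDR 0.108), and was lower in ARG1+ in 5 of 5 mice. It passed with the mouse as a block (-1.36, FDR 0.0312) and with DESeq2 (FDR 0.0453). Its size rested on the ARG1- library of m234, without which the value was -0.62 (FDR 0.170).

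Of 7 tested genes of leukotriene conversion and export, *Ggt5*, which turns leukotriene C4 into D4, fell (2.05 ± 0.282 against 4.07 ± 1.37 CPM; -0.91, FDR 0.0179) and *Abcc1*, an exporter of leukotriene C4 that the naming rule did not select, rose (0.40, FDR 0.0418). Without the block *Ggt5* was above an FDR of 0.05 only without both libraries of m2 (FDR 0.0976) or of m236 (FDR 0.0543), and *Abcc1* with total counts (FDR 0.0578) and in 12 of 15 fits that left out a library or a mouse (up to 0.119, without both libraries of m6). *Cyp4f18*, a hydroxylase of leukotriene B4 and the most abundant, was at 306 and 343 CPM (-0.13, FDR 0.296), and passed with the block at the same size (-0.13, FDR 0.0377). None of 6 tested receptors of leukotrienes and lipoxins and their relatives passed without the block, neither *Cmklr1*, the most abundant (273 and 276 CPM, FDR 0.903), nor *Fpr1*, with the largest value (0.55, FDR 0.298). With the block *Fpr1* passed (0.62, FDR 0.00504), higher in 5 of 5 mice. *Ephx1*, the only epoxide hydrolase tested, was at 3.24 ± 1.44 and 1.93 ± 0.793 CPM (0.85, FDR 0.137), and passed with the block (0.78, FDR 0.00185).

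**Figure D5:**
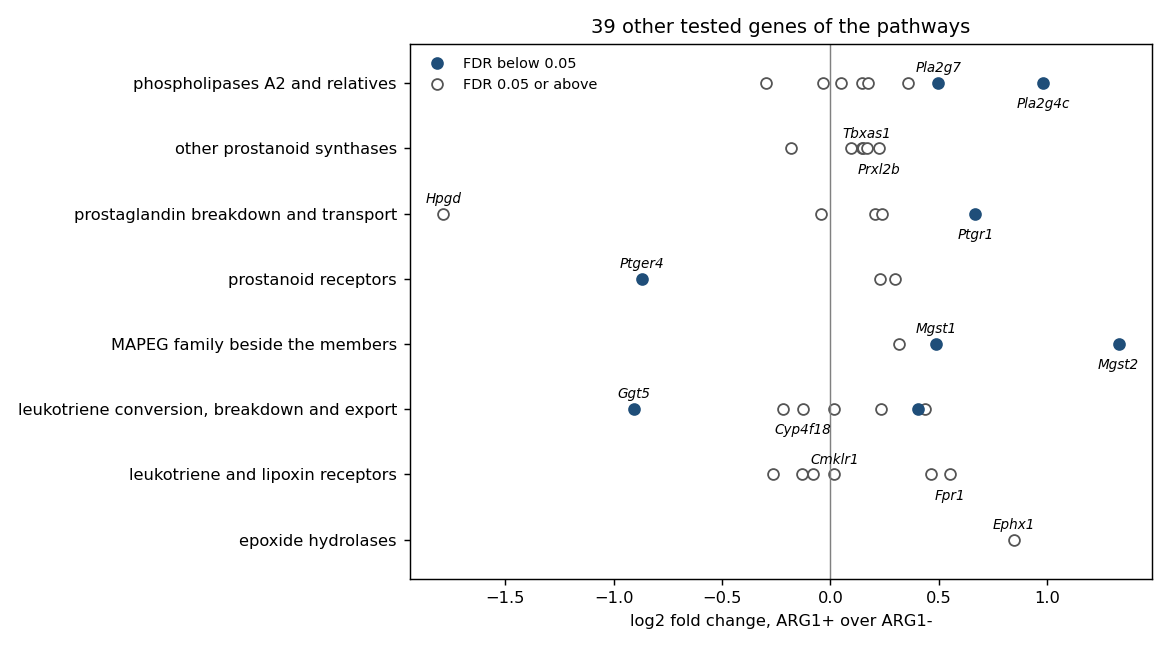
Log2 fold change of ARG1+ over ARG1- for 39 other tested genes of the same routes, by list, with filled circles for an FDR below 0.05 in edgeR. *Mgst2* lies farthest to the right of the filled circles, and *Ggt5* and *Ptger4* are the only filled circles to the left.

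For the 2 members past the test, the genes with the most similar log2 CPM over the 10 libraries are given as a description, since libraries of the same mouse are not independent. For *Alox5* these were *Rras2* (Pearson r = 0.984), *Gm7451* (0.970) and *Spns2* (0.963). For *Cyp2j6* they were *Gm8615* (0.964), *Golga7* (0.964) and *Gpr137b* (0.963).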

How the data were processed

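The deposited values are read counts per gene without normalization. The authors made strand-specific libraries, read 50 bases from 1 end and aligned them to GRCm38 with STAR (version 2.7.10b in the submitters' processing notes) using the basic gene set of Ensembl release 100. Transcripts were counted by summarizeOverlaps in Union mode and added up per gene. The 10 columns, 5 per group, were all used. CPM are counts over the library total.

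A gene entered the tests if at least 3 libraries exceeded 1 CPM. The tests used edgeR 4.0.16 in R 4.3.3 (TMM library sizes, quasi-likelihood test, Benjamini-Hochberg over 13740 genes, no block). SEs were taken from the F statistic. Alternatives were limma-trend (limma 3.58.1, prior count 2), the Wald test of DESeq2 1.42.0, RLE or total counts as library sizes, other filters, a log2 fold limit of 1, the mouse as a block, and libraries or mice left out. Blocked fits with a mouse left out and permutation of signs within mice were added after the data were seen. Single values were tested by 2-sided exact permutation of log2 CPM, whose smallest p is 0.00794. This permutation exchanges libraries freely and does not keep the 2 libraries of a mouse together. The fits were tested on simulated data, where edgeR without the block recovered 189 of 200 genes changed by 1.5 on the log2 scale among 13620, with 8 false calls. The blocked fit recovered 191 with 13 false calls, limma-trend 189 with 12 and DESeq2 192 with 39. The simulated libraries were drawn independently, without an effect of the mouse. These counts therefore cannot show how the fits with and without the block act on paired libraries.

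The libraries were paired because each mouse gave both. Residuals from the group means correlated at 0.361 to 0.664 for the same mouse and at most 0.0675 for different mice, across genes, which are not independent replicates. Exon lengths, overlaps and shared stretches of 50 bases came from a GENCODE annotation of GRCm38 that is older than that of the authors, coordinates from the deposited table and promoters from RefSeq.

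The members and lists were chosen with earlier results of these data known. All members were named, and of the other genes those past both limits and, per list, the most abundant gene by RPKM and the one with the largest change. In the smallest library 1 CPM is 8.40 counts. Of the marker genes, 1 is not reported here and was left out of its list.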

Additional observations from a re-analysis of the deposited data

Results flagged for a closer look

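Of 20 groups of 5 libraries, 2 for each of the 10 genes, 1 held a library far from the others. *Alox15* was at 0.0316 CPM in the ARG1+ library of m234, and the next value was 0.0591 CPM. Chance alone gives such a gap in about 1 of 20 groups, and these values are 1 and 2 counts.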

How the results depend on the processing

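The number of members called higher, 1, was 2 with DESeq2, 4 with the replicate block and 0 with CPM above 1 in at least 5 libraries, which leaves out *Cyp2j6*. Left-out libraries or mice gave 0 to 2, and 3 to 5 under the block. The number called lower, 1, was 0 with the fold limit and 0 to 1 in left-out fits, or 1 to 2 under the block. Of the other pathway genes, 6 higher became 17 with the block and 1 with the fold limit, with 1 to 6 in left-out fits and 11 to 18 under the block. The 2 lower became 4 with DESeq2, 6 with the block and 0 with the fold limit, with 1 to 3 in left-out fits and 4 to 8 under the block. The replicate block, which pairs the libraries of a mouse, changed the call of *Ptgs2*, *Ptges* and *Lta4h* and of no other member.

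Signs changed for genes that did not pass in those fits. *Ptgs1* ran from -0.0375 (without the ARG1- library of m235) to 0.327, *Hpgds* from -0.515 to 0.0223 (without the ARG1- library of m234), *Alox5ap* from -0.0598 to 0.0247 (and 0.000795 without a filter) and *Cmklr1* from -0.0286 to 0.0691 (-0.0209 with total counts) over left-out libraries and mice. *Cyp2j6* stayed between 1.29 and 1.64 in all fits that tested it, and *Alox5* between -1.06 and -0.77. Genes of few counts, *Alox5*, *Ltc4s*, *Cyp2j6* and *Alox15*, are limited by depth most of all in the ARG1- library of m234.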
